A study of Mus musculus with 9 samples.

Results

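The 32 genes described here carry the transcriptional output of the integrated stress response and of the unfolded protein response in cells of the mouse fibroblast line NIH 3T3. They were chosen by name for their place in these pathways, and each was read from the probe set that names it alone, taking the brightest over the 9 arrays where there were several. All 32 were measured among the 19935 genes with such a probe set, and none had a mean level below that of the median gene. They fall into 9 amino acid genes linked to the transcription factor ATF4, 9 stress regulators and effectors, 11 chaperone and folding genes of the endoplasmic reticulum (ER), and 3 genes comprising Xbp1 and ER-associated degradation.

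The cells stably carried an shRNA against Net (gene Elk3), an shRNA against Sap-1 (gene Elk4) or the control vector pLKO.1, with 3 arrays per group, each labelled a separate biological replicate. Both targets are ternary complex factors, members of the ETS family that act on promoters beside serum response factor. All groups shared the same handling, in which cells attached to fibronectin-coated plastic for 2 h, went overnight without serum and then received bovine serum for 1 h, so no unstimulated cells were compared. Each sample's protocol states 10% serum, whereas the design text of the series states 20%. The labels name 1 shRNA target per group and do not say how many transduced lines or shRNA sequences stood behind each, so p-values measure the spread between these cultures only. As these are bulk RNA samples, fewer cells of a kind and less RNA per cell cannot be told apart.

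In the integrated stress response, kinases that sense amino acid shortage, unfolded ER protein, viral RNA or haem shortage phosphorylate the translation factor eIF2. Bulk translation falls, translation of Atf4 mRNA rises, and ATF4 protein with C/EBP partners turns on genes for amino acid synthesis, amino acid import and tRNA charging. In the unfolded protein response, the ER sensors PERK, IRE1 and ATF6 react to misfolded protein. PERK is an eIF2 kinase, IRE1 splices Xbp1 mRNA, and cleaved ATF6 and spliced XBP1 drive genes for ER chaperones and for the degradation of misfolded protein. Secretory fibroblasts use this system for collagen and other matrix proteins. The arrays measured mRNA, and neither translation of Atf4, phosphorylation of eIF2 nor Xbp1 splicing was read.

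Upstream sequences are shown because the ER stress element and the C/EBP-ATF element are the known DNA elements of the chaperone and ATF4 branches. RefSeq promoters of GRCm38.p6, covering 250 bases before to 50 bases after the start, were available for 29 of the 32 members, with 31 promoters among them. Slc7a5, Hyou1 and Manf were not in that table. The ER stress element, searched on both strands as CCAAT, any 9 bases and CCACG, matched in 39 of 32851 promoters, or 0.119%. It matched in 6 of the 9 chaperone genes with a promoter and in none of the other 20 members. The matches are given 5′ to 3′ on the strand that reads CCAAT first, with the fixed letters in capitals.
Hspa5, bases -65 to -47: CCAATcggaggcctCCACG
Calr, bases -162 to -144: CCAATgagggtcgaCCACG
Hsp90b1, bases -212 to -194: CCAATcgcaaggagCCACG
Hsp90b1, bases -107 to -89: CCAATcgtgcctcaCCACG
Pdia6, bases -98 to -80: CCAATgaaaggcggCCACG
Dnajc3, bases -105 to -87: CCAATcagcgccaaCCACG
Creld2, bases -126 to -108: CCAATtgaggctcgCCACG

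The C/EBP-ATF response element, the composite sequence that ATF4 is known to bind with C/EBP proteins, was searched as TGATGNAA on both strands and matched in 3.97% of all promoters. It matched in 7 of the 29 members, or 24.1%, of which 2 were amino acid genes, 4 were regulators and effectors and 1 was Herpud1, and in no chaperone gene. Slc7a11 had a pair of matches, one on each strand. The matches are shown with 11 bases on either side, the motif in capitals and each on the strand that reads TGATG.
Slc7a11, bases -66 to -59: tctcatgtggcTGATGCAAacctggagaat
Slc7a11, bases -47 to -40: gggctgcatgaTGATGCAAattctccaggt
Asns, bases -23 to -16: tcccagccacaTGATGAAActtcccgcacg
Chac1, bases -193 to -186: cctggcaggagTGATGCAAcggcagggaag
Trib3, bases 15 to 22: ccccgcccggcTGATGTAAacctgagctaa
Nupr1, bases -110 to -103: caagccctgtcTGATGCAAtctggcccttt
Herpud1, bases -112 to -105: ggggtgcgggcTGATGCAAcccgccgtggt
Vldlr, bases -200 to -193 of its downstream promoter: gctaggagcgcTGATGCAActattgctgct

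One upstream region of each kind is given whole, as the 250 bases before the RefSeq start in GRCm38.p6. That of Hspa5, which encodes the chaperone BiP, lies at chr2:34771840-34772089 on the plus strand. Its capitals mark a UPR element core, TGACGTG, and further on the ER stress element.
Hspa5: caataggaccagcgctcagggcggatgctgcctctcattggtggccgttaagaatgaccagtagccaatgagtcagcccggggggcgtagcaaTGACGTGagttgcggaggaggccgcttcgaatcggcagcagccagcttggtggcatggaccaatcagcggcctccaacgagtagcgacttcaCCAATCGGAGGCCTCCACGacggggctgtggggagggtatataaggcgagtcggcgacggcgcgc
That of Slc7a11, the light chain of the cystine/glutamate antiporter, lies at chr3:50443614-50443863 on the minus strand. Its capitals mark both C/EBP-ATF matches, the one nearer the start read here on its other strand.
Slc7a11: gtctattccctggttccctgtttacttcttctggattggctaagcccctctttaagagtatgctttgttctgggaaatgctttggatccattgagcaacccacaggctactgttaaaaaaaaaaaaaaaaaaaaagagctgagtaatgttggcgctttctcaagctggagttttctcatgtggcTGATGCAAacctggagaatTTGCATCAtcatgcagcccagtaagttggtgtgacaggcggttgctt
The UPR element core matched in 2.01% of all promoters and in Hspa5 alone among the members. CCACG by itself, which the ER stress element contains, matched in 32.8% of all promoters and in 23 of the 29 members. The ETS core CCGGAA matched in 14.9% of all promoters and in 7 members, and a CArG box, the serum response factor sequence, matched in 1.63% of all promoters and in Herpud1 alone. A match is a run of letters and not a measured binding site, and a missing match says only that those letters are not in that window.

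**Figure D1:**
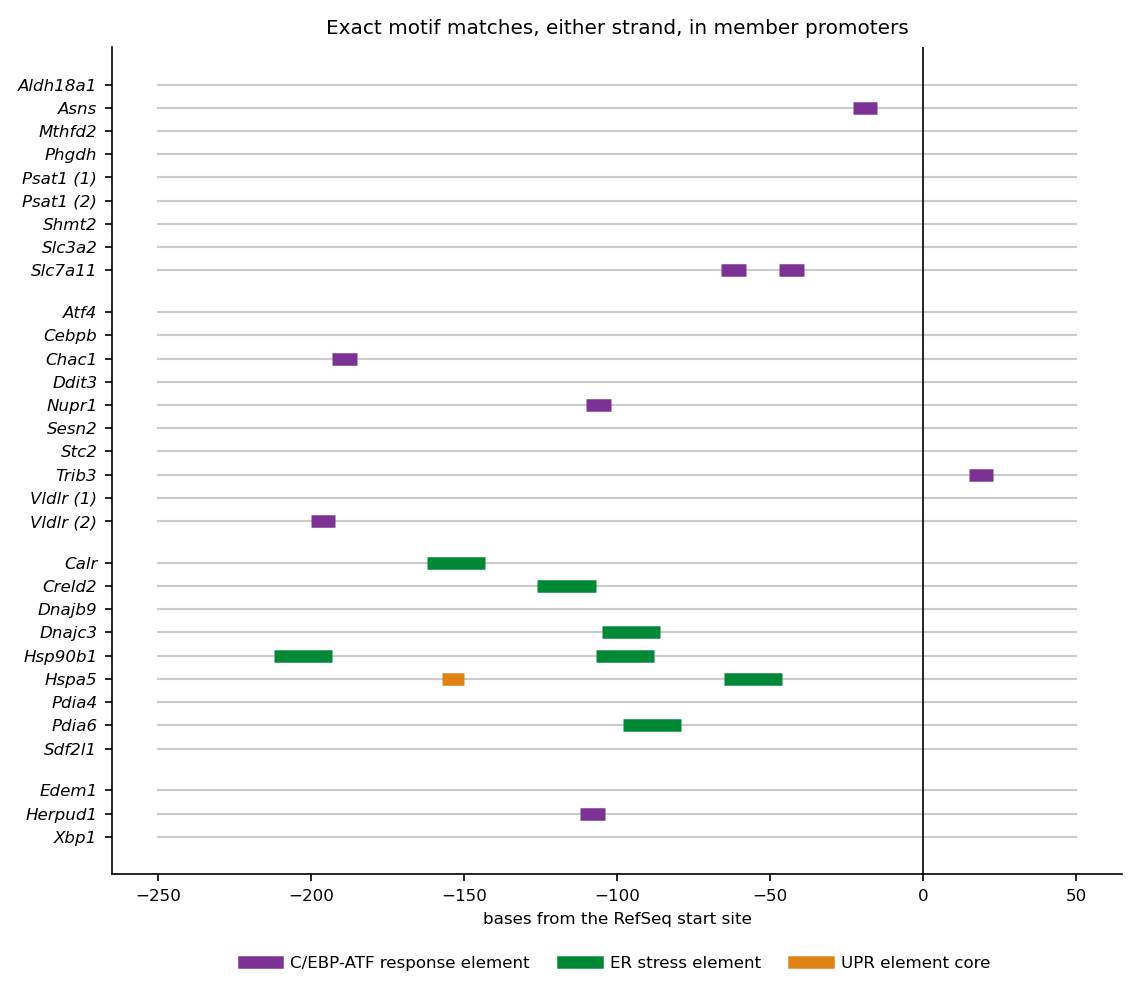
Exact matches of 3 elements in 31 promoters of 29 members, drawn by distance in bases from the RefSeq start site, with members grouped as amino acid genes, regulators and effectors, chaperones, and Xbp1 with the degradation genes. Green ER stress elements lie only in the chaperone block, in 6 of its 9 genes, and purple C/EBP-ATF elements lie in 7 genes of the other blocks.

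Values below are RMA log2 levels, so a difference of 1 is a factor of 2, and differences are compared within a probe set only. A gene was called at a limma adjusted p under 0.05 (Benjamini-Hochberg over all 19935 genes of a comparison). Arrays of 1 group correlated at 0.9981 to 0.9992 and arrays of different groups at 0.9879 to 0.9947. Elk3 was at 11.06, 11.08 and 11.10 in Net shRNA cells, against 11.48, 11.52 and 11.52 in control cells, and fell by 25.5% (adjusted p = 1.06e-05). Elk4 fell by 65.5% in Sap-1 shRNA cells (adjusted p = 9.25e-10). Elk4 also fell by 26.4% in Net shRNA cells (log2 difference -0.44, limma adjusted p = 2.34e-05), where the log2 difference of Elk3 was -0.42. In Net shRNA cells the labelled target thus fell no more than Elk4. Elk3 was lower in Sap-1 shRNA cells by -0.12 (adjusted p = 0.0227), so neither group differed from control in its labelled target alone. Of 10 fibroblast markers 9 lay above the median gene in every group, all but Fap. Their mean level per array was 11.78 to 11.83 in Net shRNA cells, 11.57 to 11.58 in Sap-1 shRNA cells and 11.85 to 11.89 in control cells. In Sap-1 shRNA cells 5 of the 10 were called lower, or 50%, against 13.9% of all genes. They were Pdgfra (-1.74), Col3a1 (-0.34), Thy1 (-0.32), Ddr2 (-0.20) and Col1a1 (-0.13), and the list's median was -0.11. In Net shRNA cells Pdgfra (-0.26), Pdgfrb (-0.14) and Ddr2 (-0.13) were called lower, or 30%, against 10.2% of all genes. Of 6 endothelial markers, none above the median gene, 2 rose in Sap-1 shRNA cells, Cdh5 (0.84) and Emcn (0.89), and the list's mean per array was 6.54 to 6.64 in Net shRNA cells, 6.79 to 6.82 in the Sap-1 shRNA group and 6.50 to 6.59 in control cells. Emcn also rose in Net shRNA cells (0.27), as did the epithelial marker Cdh1 (0.38) and the macrophage markers Cd14 (0.41) and Cd68 (0.23), of 6 and 8 markers in their lists. In Sap-1 shRNA cells Cd14 rose by 0.21 and Cd68 fell by 0.23. The part of these markers in the results below was not tested.

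Sap-1 shRNA cells had higher mRNA for many of these genes than control cells. Of the 32 members 17 rose, or 53.1%, and 1 fell, or 3.12%, with 14 not called. Over all genes tested 15.8% were called higher and 13.9% lower (29.7% either way), and among the 7620 genes at least as bright as the dimmest member the shares were 28.4% and 23.5%. The median member difference was 0.21, against -0.018 over all genes. The 3 arrays of each group did not overlap for 22 members higher and 4 lower, where 20.8% and 20.2% of all genes did the same. All 18 calls held under each of 19 other ways of processing, 9 of which left out 1 array. Requiring at least 1.5-fold, which is not among the 19, ended 14 of the 18.

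Net shRNA cells showed no such lean. Of the 32 members 6 rose, or 18.8%, and 7 fell, or 21.9%, with 19 not called and a median difference of 0.015, against -0.0023 over all genes. The shares called over all genes were 13.4% higher and 10.2% lower (23.6% either way), and 24.1% and 19.5% among the genes at least as bright as the dimmest member, so the members' shares were near those of equally bright genes. Groups did not overlap for 10 members higher and 10 lower, where 18.5% and 15.8% of all genes did the same. The 3 rises with the highest adjusted p, Phgdh, Herpud1 and Pdia4, were lost with many settings, among them leaving out Net shRNA replicate 2 or 3, control replicate 1 or 2, or Sap-1 shRNA replicate 1 or 2, each of which left 3 members higher.

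Set directly against each other, Net shRNA cells were lower than Sap-1 shRNA cells for 19 members, or 59.4%, and higher for 3, or 9.38%, with a median difference of -0.22, against 0.016 over all genes. Over all genes 14.2% were called higher and 13.3% lower (27.5% either way), and among genes at least as bright as the dimmest member 24.5% and 24.7%. The groups did not overlap for 25 members lower and 4 higher, against 17.8% and 19.6% of all genes. The comparisons share arrays in pairs, so their counts are not independent of one another.

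**Figure D2:**
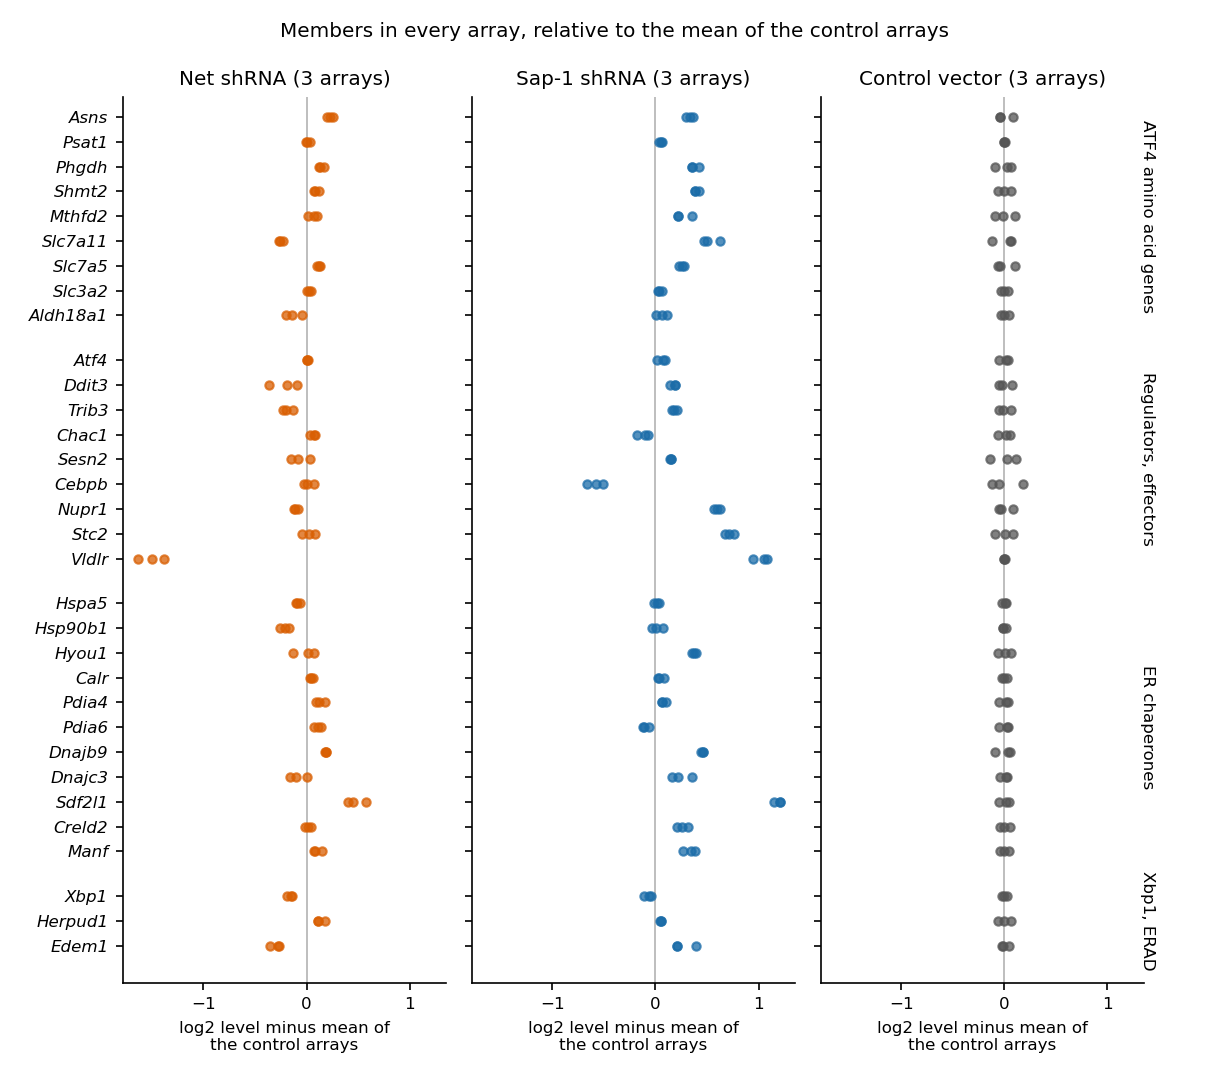
Each of the 32 members in each of the 9 arrays, as log2 level minus the mean of the 3 control arrays, with a panel per group and members grouped by role. The Sap-1 shRNA points lie right of 0 for most members, whereas the Net shRNA points lie on both sides, with Vldlr far to the left and Sdf2l1 to the right.

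Most amino acid genes rose in Sap-1 shRNA cells. There limma called 6 of 9 higher and 0 lower (0 lower also at an unadjusted p under 0.05), with all 9 differences above 0 and a median of 0.26. The share higher was 66.7%, against 15.8% of all genes and 28.4% of genes at least as bright as the dimmest member. The Net shRNA counts were 2 higher and 1 lower, with a median of 0.06. That is 33.3% called either way, against 23.6% of all genes and 43.6% of genes at least as bright as the dimmest member. Asns, which makes asparagine, was at 13.13, 13.07 and 13.10 in Net shRNA cells, at 13.21, 13.17 and 13.24 in Sap-1 shRNA cells and at 12.84, 12.83 and 12.96 in control cells. Both knockdown groups lay wholly above control. The rise was 0.23 ± 0.05 (SE) in Net shRNA cells (adjusted p = 0.00354) and 0.33 ± 0.05 in the Sap-1 shRNA group (adjusted p = 0.000194). The 2 knockdowns did not pass the test against each other (-0.10, adjusted p = 0.127).

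Slc7a11, which imports cystine, moved in opposite directions. Its level was 10.04, 10.06 and 10.03 in Net shRNA cells, 10.76, 10.79 and 10.92 in Sap-1 shRNA cells and 10.35, 10.17 and 10.35 in control cells. The 3 groups did not overlap. Slc7a11 fell by 15.9% in Net shRNA cells (log2 difference -0.25 ± 0.06, adjusted p = 0.00832) and rose 1.45-fold in Sap-1 shRNA cells (0.54 ± 0.06, adjusted p = 3.22e-05). Between the knockdowns the difference was -0.79 (adjusted p = 1.63e-06).

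The serine and one-carbon enzymes followed the Sap-1 shRNA pattern with 1 exception. Phgdh, the entry enzyme of serine synthesis, rose by 0.38 in the Sap-1 shRNA group (adjusted p = 9.76e-05) and by 0.14 in Net shRNA cells (adjusted p = 0.0495). Shmt2, the mitochondrial serine hydroxymethyltransferase, averaged 12.12 ± 0.03 in Net shRNA cells, 12.43 ± 0.03 in the Sap-1 shRNA group and 12.03 ± 0.06 in control cells (SD, n = 3 each), a Sap-1 shRNA rise of 0.40 (limma adjusted p = 3.21e-05). Mthfd2, of mitochondrial folate metabolism, rose by 0.26 in the Sap-1 shRNA group (adjusted p = 0.00525), and its difference between the knockdowns of -0.20 (adjusted p = 0.0254) was lost without Net shRNA replicate 1 or 3 or Sap-1 shRNA replicate 1. Psat1, the transaminase between Phgdh and serine, differed by 0.01 in Net shRNA cells and 0.05 in Sap-1 shRNA cells and was not called in either.

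Among the transporters, Slc7a5, the light chain of the large neutral amino acid transporter, rose by 0.25 in Sap-1 shRNA cells (adjusted p = 0.00182), with 0.12 in Net shRNA cells (adjusted p = 0.106). Its heavy chain Slc3a2, which also serves Slc7a11, was within 0.04 of control in both groups and was not called. Thus both light chains were called in Sap-1 shRNA cells and the heavy chain was not. Aldh18a1, of proline synthesis, was not called against control (-0.13 in Net shRNA cells and 0.06 in Sap-1 shRNA cells) but was lower in Net shRNA than in Sap-1 shRNA cells by -0.19 (adjusted p = 0.014), a call lost without Net shRNA replicate 1 or Sap-1 shRNA replicate 3 (highest adjusted p = 0.0539).

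Atf4 mRNA itself stayed within the spread of its arrays. It was at 10.26, 10.26 and 10.27 in Net shRNA cells, at 10.27, 10.33 and 10.35 in Sap-1 shRNA cells and at 10.21, 10.29 and 10.27 in control cells. The ranges overlapped control in both cases. The difference was 0.01 in Net shRNA cells (95% interval -0.08 to 0.10) and 0.06 in Sap-1 shRNA cells (95% interval -0.03 to 0.15), so changes beyond these bounds lie outside the intervals, and smaller ones cannot be told from 0.

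The regulators and effectors showed the widest spread. In Sap-1 shRNA cells 4 of 9 rose and 1 fell, and in Net shRNA cells limma called 0 higher and 3 lower (0 higher also at an unadjusted p under 0.05). Called either way were 55.6% in Sap-1 shRNA cells and 33.3% in Net shRNA cells. Over all genes the shares were 29.7% and 23.6%, and among genes at least as bright as the dimmest member 51.9% and 43.6%. Vldlr, a lipoprotein receptor whose gene is a known ATF4 target under ER stress, was at 7.73, 7.61 and 7.47 in Net shRNA cells, at 10.06, 10.16 and 10.19 in Sap-1 shRNA cells and at 9.10, 9.10 and 9.12 in control cells. The groups stood far apart, with Net shRNA below control and Sap-1 shRNA above it. Vldlr fell by 64.8% in Net shRNA cells (log2 difference -1.51 ± 0.06, adjusted p = 4.46e-08) and rose 2.04-fold in Sap-1 shRNA cells (1.03 ± 0.06, adjusted p = 3.79e-07), a difference of -2.54 between the knockdowns (adjusted p = 2.81e-10). It had the largest absolute difference of any member in the Net shRNA comparison and in that between the knockdowns.

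Trib3, a pseudokinase that restrains ATF4 signalling, was at 9.90, 9.97 and 9.87 in Net shRNA cells, at 10.28, 10.31 and 10.26 in Sap-1 shRNA cells and at 10.05, 10.08 and 10.17 in control cells. It fell by 0.19 ± 0.05 on the log2 scale in Net shRNA cells (adjusted p = 0.0109) and rose by 0.18 ± 0.05 in Sap-1 shRNA cells (adjusted p = 0.00975), with no overlap between groups. Ddit3, which encodes the stress factor CHOP, was at 9.80, 10.07 and 9.97 in Net shRNA cells, at 10.31, 10.36 and 10.35 in Sap-1 shRNA cells and at 10.14, 10.24 and 10.12 in control cells. Its order was the same, and the groups did not overlap. Its fall in Net shRNA cells was 0.22 ± 0.07 on the log2 scale, or a drop by 13.9% (adjusted p = 0.0333), and its Sap-1 shRNA difference of 0.17 was not called (adjusted p = 0.0692). The Net shRNA call was lost without any 1 of the control arrays, without Net shRNA replicate 1 or 3, or without Sap-1 shRNA replicate 2, with adjusted p up to 0.136 over all settings.

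Nupr1, a small stress-induced nuclear protein, was at 10.76, 10.74 and 10.72 in Net shRNA cells, at 11.41, 11.47 and 11.45 in Sap-1 shRNA cells and at 10.79, 10.81 and 10.93 in control cells. Stc2, which encodes the secreted glycoprotein stanniocalcin-2, was at 8.51, 8.64 and 8.58 in Net shRNA cells, at 9.27, 9.23 and 9.32 in Sap-1 shRNA cells and at 8.47, 8.56 and 8.64 in control cells. Both were clearly apart in Sap-1 shRNA cells, while the Net shRNA arrays lay just under control for Nupr1 and overlapped it for Stc2. The rises were 1.51-fold for Nupr1 (0.60 ± 0.04, adjusted p = 2.27e-06) and 1.64-fold for Stc2 (0.71 ± 0.05, adjusted p = 2.06e-06), and the Net shRNA differences of -0.11 and 0.02 were not called.

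Cebpb was the 1 member that fell in Sap-1 shRNA cells. This C/EBP family factor, a partner of ATF4 and of CHOP, was at 10.13, 10.23 and 10.15 in Net shRNA cells, at 9.57, 9.64 and 9.49 in Sap-1 shRNA cells and at 10.03, 10.10 and 10.33 in control cells. It fell by 33.2% in the Sap-1 shRNA group (-0.58 ± 0.07, adjusted p = 0.000102) and overlapped control in Net shRNA cells (0.02, adjusted p = 0.91). Chac1, an enzyme that degrades glutathione and a CHOP and ATF4 target, gave 0.06 in Net shRNA cells and -0.12 in Sap-1 shRNA cells, neither called, and was higher in Net shRNA than in Sap-1 shRNA cells by 0.18 (adjusted p = 0.00938), a call lost after neighbour correction (0.11, adjusted p = 0.111), in which the median deviation of a gene's 50 nearest expressed neighbours is subtracted in every array. Sesn2, a leucine sensor of the mTORC1 pathway, gave -0.07 and 0.15 in the same order, neither called. Sesn2 was lower in Net shRNA than in Sap-1 shRNA cells by -0.21 (adjusted p = 0.0293), a call lost without any 1 Sap-1 shRNA array or without Net shRNA replicate 1 or 3 (highest adjusted p = 0.106 over all settings). Thus Atf4, Cebpb and Chac1 were not among the members that rose in Sap-1 shRNA cells, while Vldlr, Stc2, Nupr1 and Trib3 were.

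**Figure D3:**
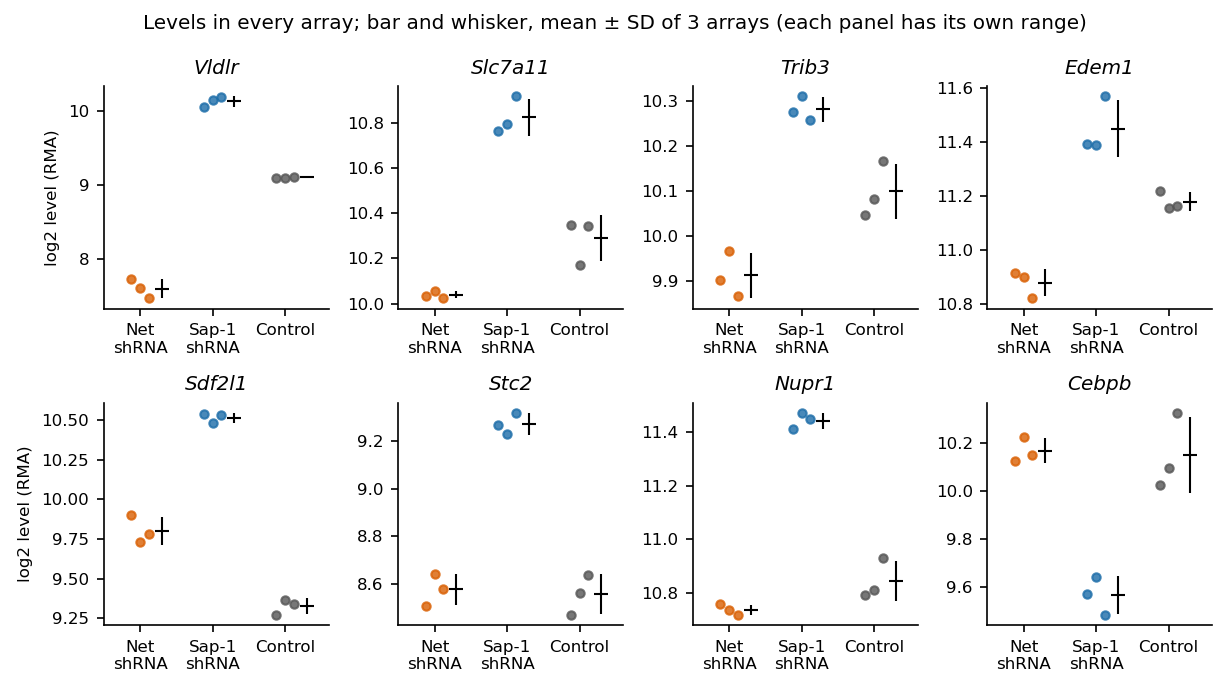
RMA log2 levels of 8 members in the Net shRNA, Sap-1 shRNA and control arrays, with a point per array and the mean ± SD of 3 arrays beside them; each panel has its own range. In Vldlr, Slc7a11, Trib3 and Edem1 the Net shRNA arrays lie below control and the Sap-1 shRNA arrays above it, while Cebpb has only its Sap-1 shRNA arrays apart, below.

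The chaperone genes split in Sap-1 shRNA cells. Of 11 genes 6 rose and 0 fell by limma (1 lower at an unadjusted p under 0.05), with a median of 0.25. The share higher was 54.5%, against 15.8% of all genes and 28.4% of genes at least as bright as the dimmest member. The Net shRNA counts were 3 higher and 1 lower, with a median of 0.04. That is 36.4% called either way, against 23.6% of all genes and 43.6% of the equally bright ones. Hspa5, the central chaperone BiP and the usual marker of ER stress, was at 13.10, 13.13 and 13.09 in Net shRNA cells, at 13.20, 13.17 and 13.22 in Sap-1 shRNA cells and at 13.17, 13.19 and 13.21 in control cells. The Sap-1 shRNA arrays overlapped control and the Net shRNA arrays lay just below it. The differences were -0.08 in Net shRNA cells (95% interval -0.16 to -0.00, adjusted p = 0.139) and 0.01 in Sap-1 shRNA cells (95% interval -0.07 to 0.09, adjusted p = 0.901). After neighbour correction Hspa5 was called higher in Sap-1 shRNA cells (0.14, adjusted p = 0.0164).

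Sdf2l1, a component of a BiP co-chaperone complex, had the largest rise of any member. Its level was 9.90, 9.73 and 9.78 in Net shRNA cells, 10.54, 10.48 and 10.53 in Sap-1 shRNA cells and 9.27, 9.37 and 9.34 in control cells. The 3 groups did not overlap. Sdf2l1 rose 1.39-fold in Net shRNA cells (0.48 ± 0.05, adjusted p = 5.47e-05) and 2.28-fold in the Sap-1 shRNA group (1.19 ± 0.05, adjusted p = 2.27e-08), and it was lower in Net shRNA than in Sap-1 shRNA cells by -0.71 (adjusted p = 1.23e-06).

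A further 5 chaperone genes rose in Sap-1 shRNA cells. Dnajb9, a BiP co-chaperone induced by XBP1, averaged 10.37 ± 0.01 in Net shRNA cells, 10.64 ± 0.01 in the Sap-1 shRNA group and 10.18 ± 0.08 in control cells (SD, n = 3 each), with rises of 0.19 and 0.46 (limma adjusted p = 0.00972 and 1.67e-05). Hyou1, a nucleotide exchange factor of BiP, rose by 0.37 in Sap-1 shRNA cells (adjusted p = 0.000326). Manf, a small secreted protein that binds BiP, rose by 0.33 (adjusted p = 0.000183). Creld2, an ER protein with disulfide isomerase activity, rose there by 0.26 (adjusted p = 0.000902), and Dnajc3, a BiP co-chaperone, by 0.25 (adjusted p = 0.00758). In Net shRNA cells these 4 lay between -0.08 and 0.10 and were not called. The second probe set of Dnajc3 holds the same values in all 9 arrays and adds no separate measurement.

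The remaining chaperone genes were not called in Sap-1 shRNA cells. Hsp90b1, the ER member of the HSP90 family, differed there by 0.01 but fell by 0.21 on the log2 scale in Net shRNA cells (adjusted p = 0.00403), which became -0.10 (adjusted p = 0.114) after neighbour correction. Calr, the lectin chaperone calreticulin, gave 0.04 in Net shRNA cells, or -0.15 (adjusted p = 0.0222) after neighbour correction, and 0.05 in Sap-1 shRNA cells. The disulfide isomerase Pdia4 rose by 0.13 in Net shRNA cells (adjusted p = 0.043) and gave 0.08 in Sap-1 shRNA cells, but the mean with its second, dim probe set gave 0.03 in Net shRNA cells (adjusted p = 0.763). Pdia6, of the same family, gave 0.11 in Net shRNA cells and -0.10 in Sap-1 shRNA cells, neither called, and was higher in Net shRNA than in Sap-1 shRNA cells by 0.21 (adjusted p = 0.00294). Set beside the sequences above, 2 of the 6 chaperone genes with an exact ER stress element rose in Sap-1 shRNA cells, Dnajc3 and Creld2, whereas Hspa5, Calr, Hsp90b1 and Pdia6 were not called. Of the 3 with a promoter and no exact match, Sdf2l1 and Dnajb9 rose and Pdia4 was not called. This division was seen after the values were known and was given no test.

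Xbp1 and the degradation genes did not move as a block. Xbp1 was at 11.96, 12.00 and 12.01 in Net shRNA cells, at 12.04, 12.09 and 12.11 in Sap-1 shRNA cells and at 12.15, 12.13 and 12.18 in control cells. Both knockdown groups lay below control. Xbp1 fell by 0.16 ± 0.04 on the log2 scale in Net shRNA cells (adjusted p = 0.012), and the Sap-1 shRNA difference of -0.07 was not called (adjusted p = 0.22). Edem1, which trims mannose from misfolded glycoproteins, was at 10.91, 10.90 and 10.82 in Net shRNA cells, at 11.39, 11.39 and 11.57 in Sap-1 shRNA cells and at 11.22, 11.15 and 11.16 in control cells. The groups did not overlap: Edem1 fell by 18.8% in Net shRNA cells (-0.30 ± 0.05, adjusted p = 0.00202) and rose 1.21-fold in Sap-1 shRNA cells (0.27 ± 0.05, adjusted p = 0.00289). Herpud1, a membrane component of the degradation machinery, rose by 0.13 in Net shRNA cells (adjusted p = 0.046), with 0.05 in Sap-1 shRNA cells.

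**Figure D4:**
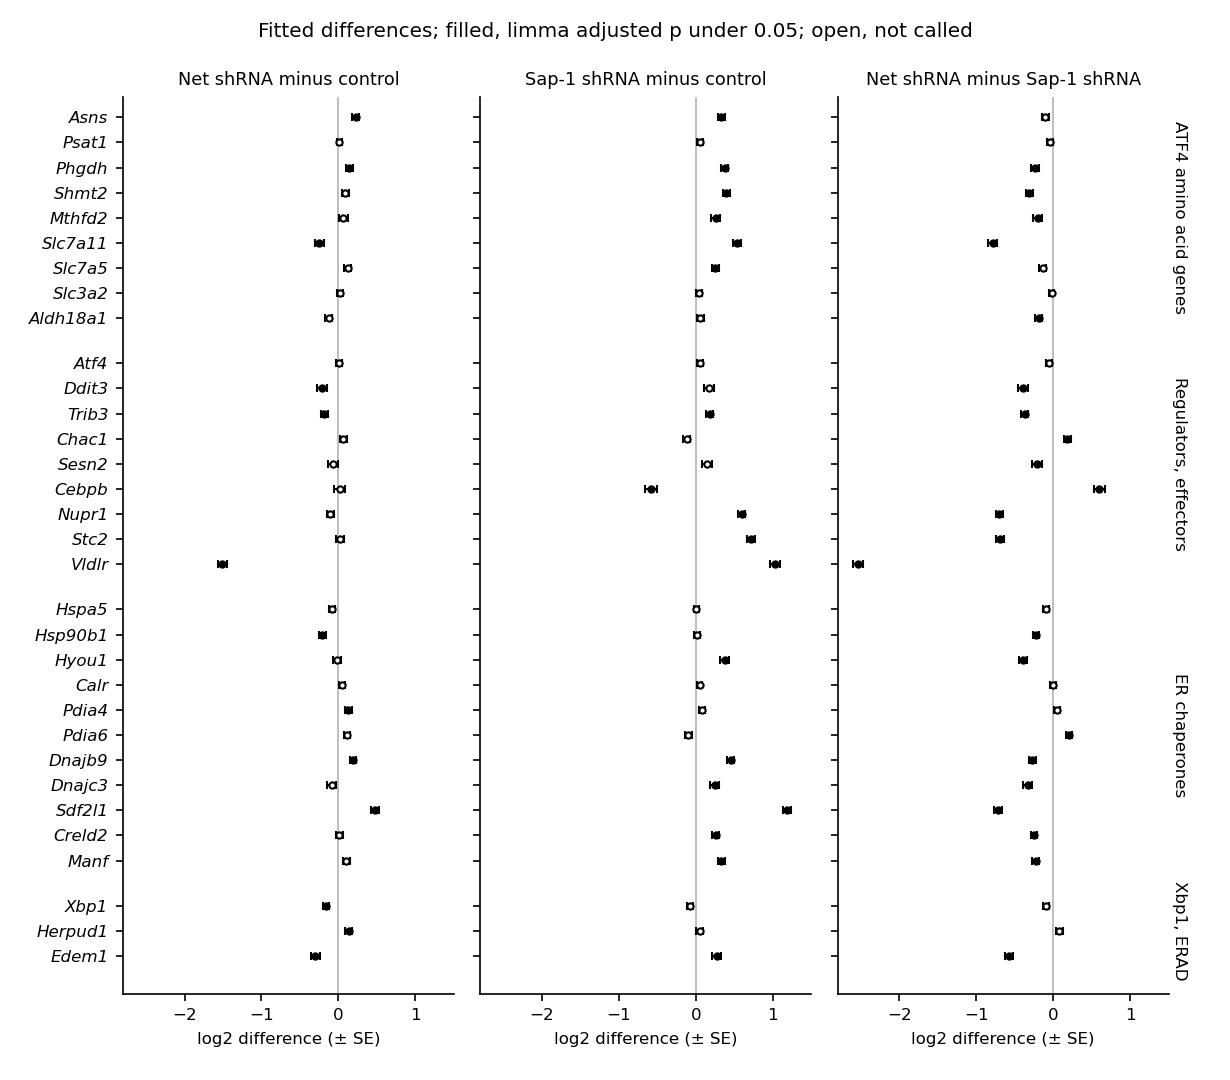
Fitted log2 differences of the 32 members with their standard errors, in a panel per comparison and grouped by role, filled where the limma adjusted p was under 0.05. In the Sap-1 shRNA panel 17 filled points lie right of 0 and Cebpb left, and in the panel of Net shRNA minus Sap-1 shRNA 19 lie left and 3 right.

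The amino acid genes and the chaperone genes had close median shifts, and no order between them held under all settings. The median of the 9 amino acid genes minus that of the 11 chaperone genes was 0.018 in Net shRNA cells, where this gap had an SD of 0.020 over the 3 knockdown arrays, which leaves out the spread of the control arrays. It was 0.015 in Sap-1 shRNA cells, with an SD of 0.062, and 0.039 for Net shRNA minus Sap-1 shRNA, with an SD of 0.068. Under other settings it ran past these SDs and changed sign. In Net shRNA cells it was 0.043 with array weights, -0.056 after neighbour correction, -0.023 without control replicate 2 and 0.056 without control replicate 3. In Sap-1 shRNA cells it was 0.078 with array weights, 0.095 without Sap-1 shRNA replicate 3 and -0.024 without control replicate 2. In each group of genes the members called in Sap-1 shRNA cells stood beside others close to control, namely Psat1, Slc3a2 and Aldh18a1 among the amino acid genes and Hspa5, Calr and Hsp90b1 among the chaperones.

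By their calls against control, 4 members rose in both knockdowns (Asns, Phgdh, Dnajb9 and Sdf2l1) and 9 rose in Sap-1 shRNA cells alone (Shmt2, Mthfd2, Slc7a5, Nupr1, Stc2, Hyou1, Dnajc3, Creld2 and Manf). A further 4 fell in Net shRNA cells and rose in Sap-1 shRNA cells (Slc7a11, Trib3, Vldlr and Edem1), and 3 fell in Net shRNA cells alone (Ddit3, Hsp90b1 and Xbp1). Pdia4 and Herpud1 rose in Net shRNA cells alone, Cebpb fell in Sap-1 shRNA cells alone, and 9 were called in neither. Both comparisons use the same control arrays. The share of all genes in each of these classes is not given here, so no class can be called more frequent among the members. Tested directly between the knockdowns, all 9 in the second set were lower in Net shRNA cells except Slc7a5 (-0.14, adjusted p = 0.0595). Of these Creld2 lost its call after neighbour correction (-0.14, adjusted p = 0.0512, against -0.25). Of the 3 that fell in Net shRNA cells alone Ddit3 and Hsp90b1 were lower and Xbp1 was not called (-0.09, adjusted p = 0.133). Hsp90b1 lost that call after neighbour correction (-0.09, adjusted p = 0.118, against -0.22). Cebpb was higher in Net shRNA than in Sap-1 shRNA cells (0.60). Pdia4 (0.05) and Herpud1 (0.08) were not called between the knockdowns, so the direct test did not set the knockdowns apart for them. Their Net shRNA calls held under 8 and 7 of the 19 other settings.

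The rest of the pathway was read from 7 wider lists, whose standard errors ran from 0.04 to 0.08. Between the knockdowns 27.5% of all genes were called either way, and 49.2% of genes at least as bright as the dimmest member. The wider lists hold some dimmer genes, such as Slc7a3 and Ero1b, so that bright set does not match them in level. Of the cytosolic aminoacyl-tRNA synthetases, which charge tRNA with amino acids and are largely ATF4 targets, 14 of 18 measured rose in Sap-1 shRNA cells and 0 fell by limma (1 lower at an unadjusted p under 0.05), with a median of 0.23. The share higher was 77.8%, against 15.8% of all genes and 28.4% of genes at least as bright as the dimmest member. The leading ones were Wars (0.86), Lars (0.48) and Farsb (0.35), the tryptophan, leucine and phenylalanine enzymes, with adjusted p of at most 4.12e-05. In Net shRNA cells 3 rose, Kars (0.45), Qars (0.26) and Farsa (0.19), and Iars fell by 0.15 on the log2 scale (adjusted p = 0.0374); the value of Farsa became -0.015 and that of Iars -0.09 (adjusted p = 0.215) after neighbour correction. The share called either way in Net shRNA cells was 22.2%, against 23.6% of all genes and 43.6% of genes at least as bright as the dimmest member. Between the knockdowns 12 were lower in Net shRNA cells, led by Wars (-0.74), Lars (-0.48) and Iars (-0.37), and Kars was higher (0.12, but 0.021 after neighbour correction). The share lower was 66.7%, against 13.3% of all genes and 24.7% of genes at least as bright as the dimmest member.

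Of the other ATF4-linked genes 12 of 19 rose in Sap-1 shRNA cells and 2 fell. For rises the share was 63.2%, against 15.8% of all genes and 28.4% of genes at least as bright as the dimmest member. For falls the shares were 10.5%, 13.9% and 23.5%. Cth, which makes cysteine from cystathionine, rose by 1.65, Ddit4, an mTORC1 inhibitor, by 0.90 and Mthfd1l, of mitochondrial folate metabolism, by 0.79, with adjusted p of at most 3.45e-07. Slc7a3, a cationic amino acid transporter, fell by 0.39 on the log2 scale. It was dim, at 7.18 against 7.57 in control cells, below the median gene at 7.81. Atf3, a stress-induced and serum-induced factor, fell by 0.17 (limma adjusted p = 0.024), though its value became 0.11 after neighbour correction. In Net shRNA cells Ddit4 (0.47) and Eif4ebp1 (0.16) rose, although Eif4ebp1 was at -0.16 after neighbour correction, and Slc7a3 (-0.38), Jdp2 (-0.23) and Atf5 (-0.17) fell. That is 26.3% called either way, against 23.6% of all genes and 43.6% of genes at least as bright as the dimmest member. Between the knockdowns 14 were lower in Net shRNA cells, led by Cth (-1.71), Mthfd1l (-0.78) and Gpt2 (-0.64), and limma called 0 higher (0 also at an unadjusted p under 0.05). The share lower was 73.7%, against 13.3% of all genes and 24.7% of genes at least as bright as the dimmest member.

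Upstream of ATF4, the genes for eIF2, its exchange factor eIF2B, its kinases and its phosphatase subunits changed in both directions. Of 13 genes 7 rose and 3 fell in Net shRNA cells. That is 76.9% called either way, against 23.6% of all genes and 43.6% of genes at least as bright as the dimmest member. Eif2b1 (0.61), Eif2b2 (0.22) and Impact (0.19), which restrains the kinase GCN2, led the rises (adjusted p of at most 0.00851). Ppp1r15a (-0.33) and Ppp1r15b (-0.31), the subunits that direct removal of the eIF2 phosphate, led the falls with Gcn1 (-0.15), a GCN2 activator (adjusted p of at most 0.027), although Gcn1 was at -0.021 (adjusted p = 0.761) after neighbour correction. In Sap-1 shRNA cells 4 rose and 3 fell, or 53.8% called, against 29.7% of all genes and 51.9% of genes at least as bright as the dimmest member. The eIF2B subunit genes Eif2b3 (0.66), Eif2b2 (0.65) and Eif2b5 (0.62) led the rises, and Ppp1r15b (-0.31), Eif2ak4 (-0.25), which encodes GCN2, and Impact (-0.15) made up the falls. Between the knockdowns 2 were higher in Net shRNA cells, Eif2b1 (0.58) and Impact (0.35), and 4 were lower, led by Eif2b3 (-0.48), Eif2b2 (-0.44) and Eif2b5 (-0.42).

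Among 21 other ER folding genes 9 rose and 2 fell in Sap-1 shRNA cells. That is 52.4% called either way, against 29.7% of all genes and 51.9% of genes at least as bright as the dimmest member. For rises alone the shares were 42.9%, 15.8% and 28.4%. Ero1a, the oxidase that recharges disulfide isomerases, rose by 1.64, the BiP co-chaperone Dnajb11 by 0.47 and the isomerase P4hb by 0.21 (adjusted p of at most 0.00116), and Fkbp14 (-0.49) and Crtap (-0.30), both of collagen folding, fell (adjusted p of at most 0.000504). In Net shRNA cells 38.1% were called, against 23.6% of all genes and 43.6% of genes at least as bright as the dimmest member. There 5 rose, led by Fkbp2 (0.22), P4hb (0.15) and Hspa13 (0.19), and Prdx4 (-0.31), Ero1b (-0.23) and Txndc5 (-0.15) fell. After neighbour correction P4hb was at 0.014 (adjusted p = 0.843), Ero1b at -0.12 and Txndc5 at -0.10, none of them called. Between the knockdowns Fkbp14 (0.60), Crtap (0.32) and Sdf2 (0.29) were higher in Net shRNA cells, and 7 were lower, led by Ero1a (-1.44), Uggt1 (-0.42, but -0.12 and not called after neighbour correction) and Ero1b (-0.49). Ero1b was dim, at 6.69 in Net shRNA cells and 7.18 in Sap-1 shRNA cells, below the median gene at 7.81.

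Of 15 further degradation genes 3 rose and 1 fell in Sap-1 shRNA cells. That is 26.7% called either way, against 29.7% of all genes and 51.9% of genes at least as bright as the dimmest member, and in Net shRNA cells 33.3% were called, against 23.6% and 43.6%. Named by the rule were Derl2 (0.24), Sel1l (0.21) and Derl1 (0.16), which were higher in Sap-1 shRNA cells, and the ubiquitin ligase gene Syvn1 (-0.26), which was lower. After neighbour correction Derl1 was at -0.069 and Derl2 lost its call (0.16, adjusted p = 0.0719). Erlec1 (0.37), Derl2 (0.37) and Vcp (0.16, but 0.082 and not called after neighbour correction) rose and Herpud2 (-0.23) and Sel1l (-0.19) fell in Net shRNA cells. Between the knockdowns Erlec1 (0.29) and Syvn1 (0.28) were higher in Net shRNA cells and Sel1l (-0.40), Derl1 (-0.28) and Os9 (-0.25) lower, with Derl1 (-0.043) and Os9 (-0.11) losing their calls after neighbour correction.

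Of 9 ER stress sensors and processing proteases limma called 0 higher and 2 lower in each knockdown. This share of 22.2% is no higher than the 23.6% of all genes called in Net shRNA cells and the 29.7% in Sap-1 shRNA cells. At an unadjusted p under 0.05 there were 0 higher and 4 lower in Net shRNA cells and 3 of each kind in Sap-1 shRNA cells. Creb3l1, an ER-anchored factor that acts on collagen genes, fell in both, by 0.66 on the log2 scale in Net shRNA cells (adjusted p = 2.96e-05) and by 0.97 in Sap-1 shRNA cells (adjusted p = 8.43e-07). Ern1, which encodes IRE1, fell by 0.24 in Net shRNA cells (adjusted p = 0.00593), and Creb3l2 by 0.44 in Sap-1 shRNA cells (adjusted p = 2.68e-05). Between the knockdowns Creb3l2 (0.46) and Creb3l1 (0.31) were higher in Net shRNA cells and Ern1 (-0.34), Atf6 (-0.33) and Wfs1 (-0.26) lower. The count of sensors called higher in Sap-1 shRNA cells ranged up to 3 over the other settings.

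Heat shock genes outside the ER, most of them cytosolic, were read for comparison; Hspd1 and Hspe1 in this list encode the mitochondrial chaperonin. In Sap-1 shRNA cells 6 of 13 rose and 1 fell. That is 53.8% called either way, against 29.7% of all genes and 51.9% of genes at least as bright as the dimmest member. Hsph1 (0.94), Hspd1 (0.44) and Cryab (0.43) were higher in Sap-1 shRNA cells, and Dnajb1 (-0.54) was lower. Net shRNA cells had Hsph1 (0.34), Dnajb1 (0.28) and Chordc1 (0.20) higher and Hspb8 (-0.40) and Dnaja1 (-0.26) lower. That is 38.5% called, against 23.6% of all genes and 43.6% of genes at least as bright as the dimmest member. After neighbour correction the Net shRNA calls of Dnajb1 (0.13, adjusted p = 0.0819) and Chordc1 (0.16, adjusted p = 0.0925) were lost. Between the knockdowns Dnajb1 was higher in Net shRNA cells (0.82), and 6 were lower, led by Hsph1 (-0.60), Hspd1 (-0.38, but -0.11 and not called after neighbour correction) and Cryab (-0.32).

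Leaving out 1 array ended some of these wider calls. In Net shRNA against control Iars, Dnaja1, Ero1b, Txndc5, Hspa13, Chordc1, Gcn1 and Vcp were each lost under at least 4 of the 9 omissions, and Atf5, Sel1l, Prdx4 and Herpud2 under 3 or fewer, with adjusted p up to 0.167. In Sap-1 shRNA against control Derl1, Derl2 and Atf3 were lost (adjusted p up to 0.122), and between the knockdowns Kars (adjusted p up to 0.0951).

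**Figure D5:**
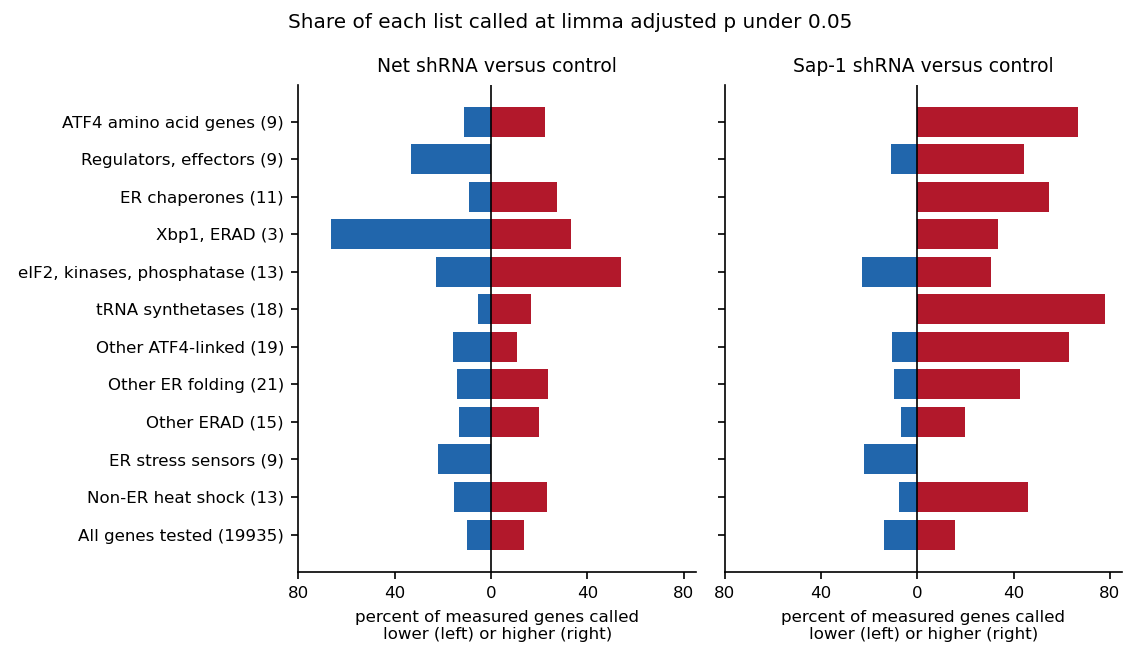
Percent of the measured genes of each list called higher (right) or lower (left) at a limma adjusted p under 0.05, with a panel for either knockdown against control, the number of genes in brackets and all genes tested in the last bar. In the Sap-1 shRNA panel 77.8% of the tRNA synthetases and 66.7% of the amino acid genes were higher, against 15.8% of all genes. Among genes at least as bright as the dimmest member, which are not drawn, 28.4% were higher. The ER stress sensors show only falls in both panels, of 2 genes in each, a share of 22.2%.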

How the data were processed

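Each of 9 biological replicates gave total RNA for 1 Affymetrix Mouse Gene 1.0 ST array. The deposited log2 values are RMA summaries that the authors computed in Expression Console (Affymetrix), per the submitters' processing notes; versions are not given in the sources used here. RMA removes a change shared by most genes and compresses dim ones. The values hold no detection calls, array medians ran from 7.47 to 7.54, and precision is limited by how many arrays there are.

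Of 28815 probe sets 21780 had 1 symbol, 1605 several and 5430 none, and only the first kind was used; the symbols of 21689 were updated by Entrez ID from RefSeq's GRCm38.p6 gene table. For 998 genes with several probe sets, 2 members among them, the brightest was used. Cross-hybridisation was not tested.

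Differences were fitted with limma 3.58.1 in R 4.3.3 (lmFit, eBayes without trend) over all 9 arrays, with 6 residual and 4.72 prior degrees of freedom, and the script was tested on simulated data. The members and lists were chosen with earlier results of these data known, and no test over a list was made. All members are named, with every array for those that differed by at least 0.5 and were called in any comparison and for Atf4, Ddit3, Asns, Hspa5 and Xbp1. Trib3 was added after its values were seen. Of each wider list up to 3 called genes per direction and comparison with the smallest adjusted p are named. Equal replicate numbers did not pair the arrays (correlations of deviations from -0.11 to 0.36).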

Additional observations from a re-analysis of the deposited data

Results flagged for a closer look

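In 4 members every Net shRNA array lay below every control array and every Sap-1 shRNA array above it, with both differences called. Since they were picked by these opposite calls, their difference between the knockdowns is a description and its limma adjusted p is no further support. Over all genes 15.8% lay wholly below control in Net shRNA cells and 20.8% wholly above it in Sap-1 shRNA cells. The share of all genes that did both is not given here. Net shRNA minus Sap-1 shRNA was -2.54 for Vldlr (adjusted p = 2.81e-10), -0.79 for Slc7a11 (adjusted p = 1.63e-06), -0.57 for Edem1 (adjusted p = 1.36e-05) and -0.37 for Trib3 (adjusted p = 9.05e-05).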

How the results depend on the processing

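Of the member calls, 8 of 13 in Net shRNA against control, 18 of 18 in Sap-1 shRNA against control and 16 of 22 between the knockdowns held under each of 19 other settings. In Net shRNA against control the 6 members higher became 3 with only the 6 arrays compared or with each array centred on its median, and 3 to 6 with an array left out. At an adjusted p under 0.01 there were 3 higher and 4 lower. Requiring 1.5-fold left 0 higher and 1 lower in Net shRNA cells, 4 higher and 0 lower in Sap-1 shRNA cells, and 1 higher and 5 lower between the knockdowns. The 1 member lower in Sap-1 shRNA cells became 2 with an intensity trend and robust variances, quantile normalization, cyclic loess, only genes above the median gene, array weights or the neighbours' median taken off, and 1 to 2 with an array left out. The gap between the medians of the amino acid and chaperone genes in Net shRNA cells was -0.017 with quantile normalization, 0.043 with array weights, -0.056 with the neighbours' median taken off, and -0.023 to 0.056 with an array left out. In Sap-1 shRNA cells it was 0.078 with array weights and -0.024 to 0.095 with an array left out. Taking off the median of the 50 nearest expressed neighbours turned Calr in Net shRNA cells to -0.15 (adjusted p = 0.0222), Farsa to -0.015 and Eif4ebp1 to -0.16, and Atf3 and Derl1 in Sap-1 shRNA cells to 0.11 and -0.069; the cause was not tested. Neighbour correction also ended the Net shRNA calls of Ddit3 (-0.13, limma adjusted p = 0.136), Hsp90b1 (-0.10, adjusted p = 0.114), Pdia4 (0.03, adjusted p = 0.602) and Herpud1 (0.04, adjusted p = 0.546). It brought Net shRNA calls for Shmt2, higher, and for Aldh18a1 and Nupr1, lower (adjusted p of at most 0.0283). In Sap-1 shRNA cells it brought calls for Hspa5, Psat1, Pdia4 and, lower, Xbp1 (adjusted p of at most 0.0446). With the replicate number as a block Phgdh (adjusted p = 0.0592) and Herpud1 (adjusted p = 0.057) lost their Net shRNA calls and Ddit3 was called in Sap-1 shRNA cells (adjusted p = 0.0302), with no other member call against control changed. The other settings for the wider lists were run after seeing the data. Planned protein sequence checks were not run.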
